A study of Rattus norvegicus with 16 samples.

Results

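The genes of the proteasome were followed in rat left ventricle after 5/6 nephrectomy (5/6Nx), an operation that removes most of the kidney mass and serves as a model of chronic kidney disease. A gene was taken when the locus tables listed it under a symbol that begins with Psma, Psmb, Psmc or Psmd and a digit, and the authors had tested the locus. A symbol listed at more than 1 locus was represented by its most abundant locus. In each of the 4 weeks 39 symbols matched, on 38 loci. Psma3l shares its locus with Psma3, and 1 further Psma3 locus of lower abundance was not used. Psmc3ip matches the wording, but it encodes a meiotic recombination factor and was set apart. This left 37 proteasome genes among 14115, 14085, 13627 and 13665 loci tested at weeks 2, 4, 5 and 7. Psmb11, the catalytic subunit of the thymus proteasome, was listed at 0.146 to 0.437 FPKM and was not tested in any week.

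The rats were male Sprague Dawley rats kept on 0.4% Dyets chow, and all had surgery at 10 weeks of age. Each of 4 sham groups and 4 5/6Nx groups, collected 2, 4, 5 or 7 weeks after the operation, had 2 RNA libraries, 16 in all. A library was a pool of 2 to 3 rats, so differences between single animals are not seen. The labels name no transgene, deletion or drug, and each week had its own sham group. The deposited tables hold 1 abundance per group and locus, taken as FPKM (fragments per kilobase of transcript and mega fragments), a level per transcript length, and the Cuffdiff test of the 2 groups. These tables give no values of single libraries, so no SD between libraries is given. The error given after ± is a standard error of the log2 fold change (5/6Nx over sham), derived from the fold change and the deposited p-value, with n = 2 pools per group.

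The proteasome is the protease that degrades proteins tagged with ubiquitin. Its 20S core is a barrel of stacked rings, with alpha subunits (Psma genes) at the ends and beta subunits (Psmb genes) inside. Psmb5, Psmb6 and Psmb7 carry the catalytic sites of the constitutive core, and interferon can have them replaced by Psmb8, Psmb9 and Psmb10, which form the immunoproteasome and favour the cutting of peptides for class I antigen presentation. The 19S cap unfolds the substrate with a ring of ATPases (Psmc genes) and recognises and strips ubiquitin with further subunits (Psmd genes). Cardiomyocytes depend on the proteasome for the turnover of sarcomere proteins, and the transcription factor Nfe2l1 is known to raise subunit genes together when proteasome activity is low.

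The promoters of the 3 catalytic subunits and of their 3 interferon-induced replacements are shown because the values below turn on these pairs. The 250 bases before the annotated start come from RefSeq on build GRCr8 (not the rn5 build of the tables) and are written 5′ to 3′ on the strand of the gene. They lie at chr15:32047380-32047629 (minus strand) for Psmb5, chr10:55737638-55737887 (plus) for Psmb6, chr3:42827471-42827720 (minus) for Psmb7, chr20:4657032-4657281 (minus) for Psmb8, chr20:4668750-4668999 (plus) for Psmb9 and chr19:50743293-50743542 (minus) for Psmb10. Capitals mark matches, on either strand, to TGACNNNGC (the core of the antioxidant response element, to which Nfe2l1 and Nfe2l2 bind), CCAAT (the CCAAT box) or the interferon response repeat (a pair of GAAA blocks with 2 bases between them).
Psmb5: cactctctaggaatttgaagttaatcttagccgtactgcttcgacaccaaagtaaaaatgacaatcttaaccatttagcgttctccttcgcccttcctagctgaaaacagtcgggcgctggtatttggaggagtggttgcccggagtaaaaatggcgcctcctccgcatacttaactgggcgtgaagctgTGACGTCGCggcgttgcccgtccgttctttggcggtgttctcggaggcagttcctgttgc
Psmb6: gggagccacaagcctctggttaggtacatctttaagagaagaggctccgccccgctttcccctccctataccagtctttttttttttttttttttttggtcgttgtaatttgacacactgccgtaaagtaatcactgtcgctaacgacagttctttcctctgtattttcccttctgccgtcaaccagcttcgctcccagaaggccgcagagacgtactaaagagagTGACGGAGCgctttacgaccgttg
Psmb7: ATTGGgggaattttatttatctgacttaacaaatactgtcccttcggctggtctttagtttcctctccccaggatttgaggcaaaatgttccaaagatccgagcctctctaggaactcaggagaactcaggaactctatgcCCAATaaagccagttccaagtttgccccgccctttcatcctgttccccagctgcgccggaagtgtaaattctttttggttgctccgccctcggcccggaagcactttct
Psmb8: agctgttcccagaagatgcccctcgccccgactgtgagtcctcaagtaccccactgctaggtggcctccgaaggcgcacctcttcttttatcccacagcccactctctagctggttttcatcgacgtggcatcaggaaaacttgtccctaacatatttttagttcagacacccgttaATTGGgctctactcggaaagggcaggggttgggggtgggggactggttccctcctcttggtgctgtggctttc
Psmb9: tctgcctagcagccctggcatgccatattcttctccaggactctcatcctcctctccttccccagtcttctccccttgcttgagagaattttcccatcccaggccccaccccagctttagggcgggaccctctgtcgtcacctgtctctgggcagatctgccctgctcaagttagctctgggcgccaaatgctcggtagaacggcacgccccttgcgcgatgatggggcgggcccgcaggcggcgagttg
Psmb10: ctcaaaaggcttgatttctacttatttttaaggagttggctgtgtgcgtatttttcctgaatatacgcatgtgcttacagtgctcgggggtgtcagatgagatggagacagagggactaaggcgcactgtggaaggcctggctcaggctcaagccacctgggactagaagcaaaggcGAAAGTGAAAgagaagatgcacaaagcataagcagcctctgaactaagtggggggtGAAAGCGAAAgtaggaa
Psmb5 and Psmb6 held TGACNNNGC, 60 to 52 and 24 to 16 bases before the start. Psmb7 and Psmb8 held the CCAAT box, and Psmb10 held the interferon repeat at 73 to 64 and at 17 to 8 bases before the start. In the Psmb9 window none of the 3 motifs was matched. Promoters were matched for 33 of the 37 genes, and 1 pair of motif matches overlapped within them. TGACNNNGC was in 6 of these 33 (18.2%, against 10.1% of 33469 promoters of the same length), CCAAT in 17 (51.5% against 34.0%) and the interferon repeat in 4 (12.1% against 3.41%). A match is a description of letters, and whether a factor binds there was not tested.

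Week 7 stands apart from the other weeks and bears on several values below. The 12 libraries of weeks 2, 4 and 5 held 46.4 to 61.8 M reads (M, mega) and 3 of the 4 of week 7 held 44.5 to 51.1 M. Pool 2 of the 5/6Nx group at week 7 held 23.6 M. The week 7 libraries had 96 to 96.2% of bases at quality 30 or above, against 93.2 to 94.5% in the other weeks. In the week 7 table the deposited statistic and the fold change had opposite signs at every locus where both could be read. Directions at week 7 follow the names of the abundance columns and would turn if those names were exchanged. Over 12123 loci the week 7 log2 fold changes had a Pearson r of 0.25, 0.33 and 0.30 with those of weeks 2, 4 and 5, beside 0.26 to 0.30 among these weeks, as a description across loci that share pools within a week. Across the 37 proteasome genes alone the week 7 values were -0.44, -0.02 and 0.46. Among the earlier weeks r was 0.04 (weeks 2 and 4), -0.10 (2 and 5) and -0.23 (4 and 5), so the proteasome genes did not share this pattern. Postn was called higher at weeks 4, 5 and 7, and Myl7 lower at weeks 4 and 7. At week 5 Myl7 was higher in value in 5/6Nx (0.28 ± 0.19) and not called. The weeks were deposited as separate tables, and a common scaling of the weeks is not stated by the labels or headers. Cardiomyocyte markers were abundant in every group, in tissue labelled left ventricle: 7 of 8 were listed, with a summed level of 32358 to 93531 FPKM. Ttn was not matched under that symbol.

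Proteasome gene expression differed little between 5/6Nx and sham at weeks 2, 4 and 5, and varied more between genes at week 7. None of the 37 genes was called by Cuffdiff in any week, where the authors' calls covered 0% of all tested loci at week 2, 0.334% at week 4, 0.55% at week 5 and 1.75% at week 7. At an unadjusted p under 0.05 in the authors' deposited table, 0, 0, 0 and 2 genes passed, against 2.77%, 5.47%, 4.44% and 10.8% of all loci. At a q-value of 0.10 or less none passed either, against 0.128%, 0.532%, 0.704% and 2.54% of all loci. The 2 genes with an unadjusted p under 0.05 were Psmb6 and Psmb8, both lower in 5/6Nx at week 7. The smallest unadjusted p of any proteasome gene in the authors' deposited table was 0.202 at week 2, 0.116 at week 4, 0.159 at week 5 and 0.0356 at week 7.

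The median log2 fold change of the 37 genes was -0.07 at week 2, -0.09 at week 4, -0.01 at week 5 and -0.07 at week 7, beside -0.02, -0.02, 0.00 and -0.01 over all tested loci. At week 7 the mean, -0.16, lay further from 0 than the median. The genes spanned -0.25 to 0.13 at week 2, -0.24 to 0.32 at week 4, -0.26 to 0.17 at week 5 and -0.79 to 0.26 at week 7. The interquartile range of the genes was 0.09, 0.11, 0.09 and 0.37, against 0.24, 0.28, 0.25 and 0.58 over all loci and 0.17, 0.19, 0.17 and 0.47 over the loci in the abundance range of these genes. That range ran from the least to the most abundant of the 37 genes and held 4886, 4934, 3980 and 7749 loci, so these loci were not matched to the genes in level. No proteasome gene lay outside the central 95% of all tested loci in any week. That band includes many loci less abundant than these genes, and none was computed for the loci in their abundance range.

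**Figure D1:**
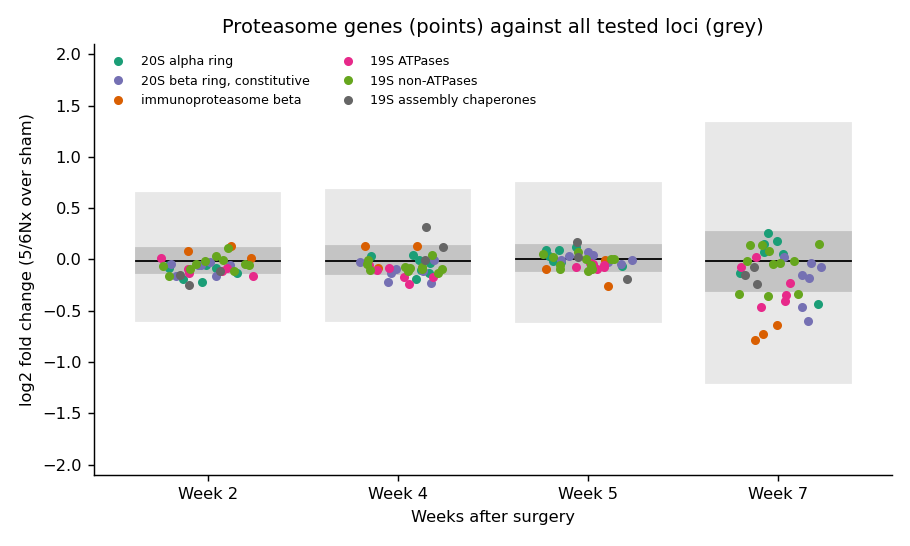
Log2 fold change (5/6Nx over sham) of the 37 proteasome genes, 1 point each and coloured by role, at each week; points are spread sideways only for legibility. The black line is the median of all tested loci, dark grey their interquartile range and light grey their central 95%; all points lie within the light band, and the lowest at week 7 are Psmb8, Psmb10 and Psmb9.

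The precision of these comparisons can be read from the 95% intervals. At weeks 2, 4 and 5 the interval of every one of the 37 genes lay within a 2-fold change in either direction, and for 35, 35 and 34 of them within 1.5-fold. At week 7 the interval lay within 2-fold for 29 genes and within 1.5-fold for 6. A difference beyond 2-fold was therefore outside the interval of most genes, while differences within the intervals were compatible with these values. At week 7 the intervals of Psmb6 (-1.16 to -0.04) and Psmb8 (-1.57 to -0.01) left out 0 before adjustment and reached beyond 2-fold. The derived standard error is unstable where the fold change is close to 0, as for Psmd7 at week 5.

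**Figure D2:**
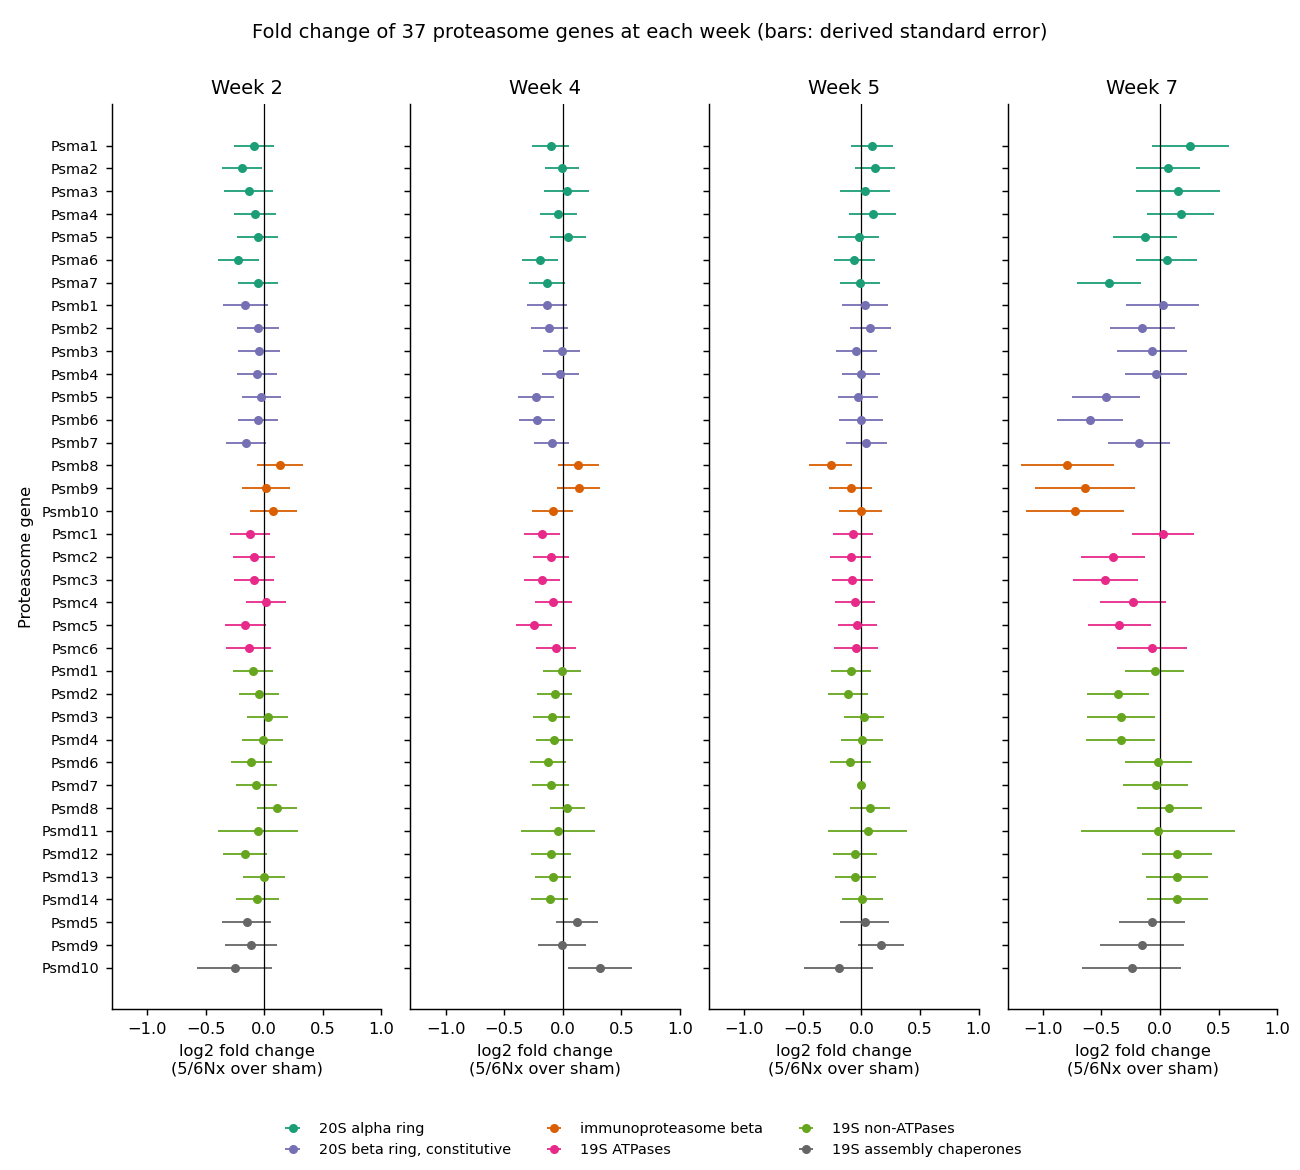
Log2 fold change (5/6Nx over sham) of each of the 37 proteasome genes, ordered by role, in 4 panels by week. Points are the fold changes and bars the derived standard error (n = 2 pools per group); the genes sit near 0 at weeks 2, 4 and 5 and spread between -0.79 and 0.26 at week 7, and the bar of Psmd7 at week 5 is too short to see.

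Many small differences had the same sign. At weeks 2, 4, 5 and 7, 31, 30, 22 and 26 of the 37 genes were lower in 5/6Nx (83.8%, 81.1%, 59.5% and 70.3%), beside 54.9%, 53.7%, 49.6% and 51.1% of all tested loci. Among the loci within the abundance range of the proteasome genes the share was 59.3%, 64.6%, 48.9% and 47.1%. In 12 genes the 5/6Nx value was below sham in all 4 weeks (32.4%, beside 16.1% of 12123 loci tested in every week): Psma7, Psmb3, Psmb4, Psmb5, Psmb6, Psmc2, Psmc3, Psmc5, Psmc6, Psmd1, Psmd2 and Psmd6. Psmd8 alone was above sham in all 4. With the week 7 columns exchanged, 11 of 37 (29.7%) would be lower at week 7, Psma6, Psmc1, Psmd12 and Psmd13 would be the 4 genes below sham in all weeks (10.8%, beside 6.84% of loci), and none would be above in all 4. These are counts of group values and not tests, because genes measured in the same pools are not independent.

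The core and cap subunits were among the more abundant transcripts of the left ventricle. The median sham level of the 37 genes was 89.9, 92.8, 106 and 71.7 FPKM at weeks 2, 4, 5 and 7, beside 8.23, 8.10, 7.56 and 8.07 FPKM over all tested loci. In sham at week 2 the geometric mean level was 158 FPKM for the alpha subunits, 173 for the constitutive beta subunits, 101 for the ATPases, 62.9 for the other cap subunits, 29.6 for the immunoproteasome subunits and 21.2 for the cap chaperones. The single genes ranged from 13.9 to 252 FPKM in that group.

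**Figure D3:**
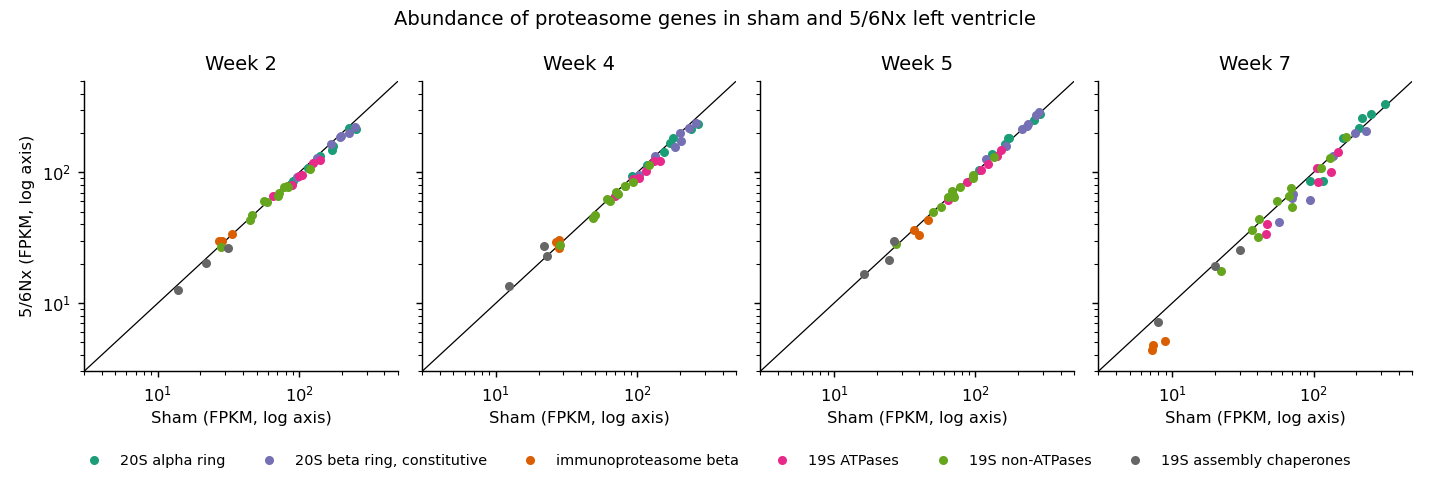
Level of each of the 37 proteasome genes in 5/6Nx against sham (FPKM, both axes log scale), 1 panel per week, coloured by role. The line marks equal levels; the points follow it closely at weeks 2, 4 and 5, and at week 7 the 3 immunoproteasome genes sit below 10 FPKM and under the line.

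The alpha ring, which gates the entry to the core, had median log2 fold changes of -0.08, -0.04, 0.03 and 0.07 over its 7 genes. All 7 were lower in 5/6Nx at week 2, and 5 of 7 were higher at week 7. Psma6 (chromosome 6, 85725254 to 85742477 in rn5) had 252 FPKM in sham and 217 in 5/6Nx at week 2, 269.5 and 236 at week 4, 261 and 249.7 at week 5, and 321 and 334 at week 7. Its 5/6Nx level was the lower one in 3 weeks, with a log2 fold change of -0.22 ± 0.17 at week 2 as the lowest of the 4. Psma2 (chromosome 17, 50791695 to 50802096) had 171 FPKM in sham and 149.6 in 5/6Nx at week 2, 169.8 and 169 at week 4, 169.9 and 184 at week 5, and 209 and 219 at week 7. Its groups were nearly level at week 4, lower in 5/6Nx at week 2 (-0.19 ± 0.17) and higher at week 5 (0.12 ± 0.17).

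Psma1 (chromosome 1, 190708744 to 190719764) had 140.4 and 132 FPKM in sham and 5/6Nx at week 2, 154 and 144 at week 4, 171 and 183 at week 5, and 218 and 261 at week 7. Its log2 fold change of 0.26 ± 0.33 at week 7 was the highest of all proteasome genes that week, and smaller than its standard error. Psma4 (chromosome 8, 58114594 to 58122078) had 115 and 109 FPKM at week 2, 117 and 114 at week 4, 130.3 and 139 at week 5, and 161 and 182 at week 7 (0.18 ± 0.28). Psma7 went the other way at week 7, with 116 FPKM in sham and 86.1 in 5/6Nx (-0.43 ± 0.27).

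Among the 7 constitutive beta genes all were lower in 5/6Nx at weeks 2 and 4, 4 at week 5 and 6 at week 7, with medians of -0.05, -0.12, -0.00 and -0.15. Psmb5, the chymotrypsin-like subunit (chromosome 15, 37143057 to 37147105), had 169 FPKM in sham and 166 in 5/6Nx at week 2, 183 and 156 at week 4, 231 and 227 at week 5, and 57.2 and 41.5 at week 7. Its log2 fold change was largest at week 7, at -0.46 ± 0.29, and -0.23 ± 0.15 at week 4. Both week 7 levels were far under those of the other weeks.

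Psmb6, the caspase-like subunit (chromosome 10, 56888909 to 56891279), had 194 FPKM in sham and 187 in 5/6Nx at week 2, 203 and 174 at week 4, 234 and 233 at week 5, and 93.6 and 61.8 at week 7. The 5/6Nx level was the lower one each time, by 0.05, 0.22 and 0.00 on the log2 scale at weeks 2, 4 and 5. At week 7 the log2 fold change was -0.60 ± 0.28, with an unadjusted p of 0.0356 and a q-value of 0.412 in the authors' deposited table. The difference did not pass the adjustment over all loci. Psmb7, the trypsin-like subunit (chromosome 3, 28115648 to 28176245), had 224 and 201 FPKM at week 2, 232 and 218 at week 4, 279.9 and 288 at week 5, and 233 and 206 at week 7 (-0.18 ± 0.26). Unlike Psmb5 and Psmb6, it kept a week 7 sham level close to that of weeks 2 and 4.

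The immunoproteasome genes were higher in value in 5/6Nx for 3 of 3 genes at week 2 and 2 of 3 at week 4, and lower for all 3 at weeks 5 and 7, with medians of 0.08, 0.13, -0.09 and -0.73. Psmb8 (chromosome 20, 6070356 to 6073320) had 27.2 FPKM in sham and 29.8 in 5/6Nx at week 2, 26.6 and 29.2 at week 4, 39.8 and 33.1 at week 5, and 8.91 and 5.15 at week 7. Its log2 fold change of -0.79 ± 0.40 at week 7 was the lowest of all proteasome genes in any week (0.79, and the highest, with the week 7 columns exchanged), with an unadjusted p of 0.0461 and a q-value of 0.450 in the authors' deposited table. At weeks 2 and 4 it was 0.13 ± 0.20 and 0.13 ± 0.17, and at week 5 it was -0.26 ± 0.19.

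Psmb9, which lies close to Psmb8 (chromosome 20, 6052658 to 6058419), had 33.5 and 33.8 FPKM at week 2, 27.7 and 30.4 at week 4, 46.5 and 43.6 at week 5, and 7.38 and 4.74 at week 7. Psmb10 (chromosome 19, 48776338 to 48779117) had 28.4 and 30.01 FPKM at week 2, 28.1 and 26.4 at week 4, 36.6 and 36.4 at week 5, and 7.21 and 4.35 at week 7. Both were lower in 5/6Nx at week 7 by less than 2 standard errors, with log2 fold changes of -0.64 ± 0.42 and -0.73 ± 0.42. All 3 genes were less abundant at week 7 than at the other weeks in sham as well as in 5/6Nx.

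The level of each interferon-induced subunit was also set against that of the subunit it replaces, a ratio in which a shift common to both genes cancels. Psmb8 stood at 16.1% of Psmb5 in sham and 17.9% in 5/6Nx at week 2, 14.6% and 18.7% at week 4, 17.2% and 14.6% at week 5, and 15.6% and 12.4% at week 7. Psmb9 stood at 17.3% and 18.1% of Psmb6 at week 2, 13.6% and 17.4% at week 4, 19.8% and 18.7% at week 5, and 7.88% and 7.67% at week 7. Psmb10 stood at 12.7% and 14.9% of Psmb7 at week 2, 12.1% and 12.2% at week 4, 13.1% and 12.7% at week 5, and 3.09% and 2.11% at week 7. In each pair the 5/6Nx share was the higher one at weeks 2 and 4 and the lower one at weeks 5 and 7. The difference in log2 fold change between the partners was largest for Psmb10 and Psmb7 at week 7 (-0.55 ± 0.50) and for Psmb8 and Psmb5 at week 4 (0.36 ± 0.23), and stayed under 2 standard errors in all 12 comparisons, with the errors of the partners taken as independent. With the week 7 columns exchanged, the 5/6Nx share would be the higher one at week 7 too.

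**Figure D4:**
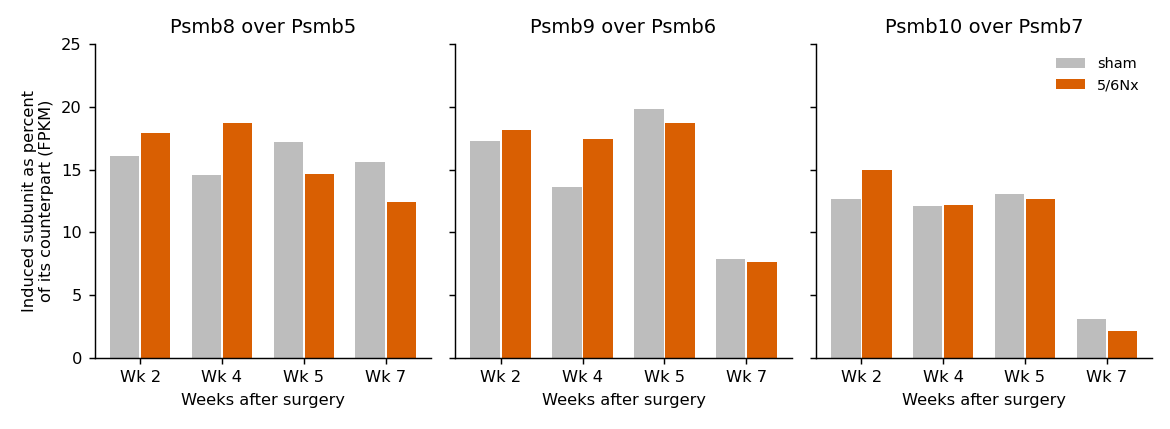
Level of each interferon-induced subunit as a percent of the level of the constitutive subunit it replaces (both in FPKM), for sham (grey) and 5/6Nx (orange) at each week, 1 panel per pair. Bars are single group values without error; the orange bar is higher at weeks 2 and 4 and lower at weeks 5 and 7, and the week 7 bars of Psmb9 and Psmb10 are the shortest in their panels.

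The ATPases of the cap had median log2 fold changes of -0.10, -0.14, -0.07 and -0.29, and 5, 6, 6 and 5 of the 6 genes were lower in 5/6Nx. Psmc5 (chromosome 10, 94197140 to 94203113) had 139 FPKM in sham and 124 in 5/6Nx at week 2, 144 and 121 at week 4, 152 and 148 at week 5, and 108 and 84.4 at week 7. It was lower in 5/6Nx each time, with -0.24 ± 0.16 at week 4 and -0.35 ± 0.27 at week 7. Psmc3 and Psmc2 also had their largest difference at week 7, at -0.47 ± 0.28 and -0.40 ± 0.27.

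The non-ATPase subunits of the cap, which include the ubiquitin receptor Psmd4 and the deubiquitinase Psmd14, had medians of -0.05, -0.09, 0.00 and -0.02 over 11 genes. Psmd8 (chromosome 1, 89292311 to 89299144) had 55.9 FPKM in sham and 60.3 in 5/6Nx at week 2, 60.9 and 62.6 at week 4, 68.2 and 71.7 at week 5, and 41.3 and 43.6 at week 7. Its log2 fold changes of 0.11, 0.04, 0.07 and 0.08 were all positive and all smaller than their standard errors (0.15 to 0.28). Psmd11 is listed on a locus of 623 kb on chromosome 10, against at most 94.95 kb for the other proteasome genes, and its week 7 standard error of 0.66 was wide.

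The chaperones Psmd5, Psmd9 and Psmd10 help to assemble the cap and leave it when it is complete. Psmd9 (chromosome 12, 40668468 to 40699371) had 21.9 and 20.3 FPKM in sham and 5/6Nx at week 2, 23.0 and 22.8 at week 4, 26.5 and 29.7 at week 5 (0.17 ± 0.20), and 7.91 and 7.11 at week 7. Psmd10 had 31.4 and 26.4 FPKM at week 2, 21.8 and 27.2 at week 4, 24.4 and 21.3 at week 5, and 30.03 and 25.4 at week 7. Its log2 fold change changed sign between weeks 2 and 4, from -0.25 ± 0.32 to 0.32 ± 0.27. The tables place this locus on chromosome 3 (52273953 to 52279025), while RefSeq places Psmd10 on chromosome X in GRCr8. The other 36 genes are on the same chromosome in both, so the Psmd10 values are uncertain, and whether they come from that gene or from a copy of it was not tested.

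Differences between weeks were tested from the derived standard errors over all 77851 pairs of weeks and loci, with Benjamini-Hochberg adjustment. None of the 222 comparisons of proteasome genes passed (0.027% of all comparisons did), with a smallest adjusted p of 1.00 for these genes. At an unadjusted p under 0.05 there were 2, both of Psmb8, against 3.37% of all comparisons. The log2 fold change of Psmb8 at week 7 was lower than at week 4 by 0.92 ± 0.43 and lower than at week 2 by 0.92 ± 0.44. The differences between weeks of the immunoproteasome genes were thus not past the adjusted threshold. With the week 7 columns exchanged, the week 7 log2 fold change of Psmb8 would be 0.79, above its 0.13 at weeks 2 and 4.

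At week 7 the genes that were lower in 5/6Nx were mostly those whose sham level was itself low in that week. Relative to the mean of weeks 2, 4 and 5 on the log2 FPKM scale, the shift of the week 7 sham level was -2.25 for Psmb9, -1.78 for Psmb8 and -1.75 for Psmb5, with Psmb10 between Psmb9 and Psmb8, and 0.77 for Psmd1 and 0.90 for Psmc6. Of 23 genes with a lower sham level at week 7, 19 were lower in 5/6Nx, with a median of -0.23. Of 14 with a higher sham level, 7 were lower, with a median of 0.02. Over all loci, 61.5% and 40.7% were lower in these 2 classes.

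Across the 37 genes the shift of the sham level and the week 7 log2 fold change had a Pearson r of 0.77 and a Spearman rho of 0.72, and 0.66 and 0.64 across the 34 genes without the immunoproteasome. With the week 7 columns exchanged, Pearson r would be -0.86 across the 37 genes and -0.59 across all loci. Taken the same way for weeks 2, 4 and 5, each against the other 2 of these weeks, Pearson r across the 37 genes was -0.56, -0.51 and 0.01. At week 7 Pearson r was 0.17 across 12123 loci and 0.31 across the 4173 of them in the abundance range of the proteasome genes. That range was set here by the mean log2 sham level over the 4 weeks, unlike the range within each week used above. These correlations describe genes of the same libraries, which are not independent, and the sham value of a week enters both axes with opposite sign. The order of the sham levels among the 37 genes was nearly the same at weeks 2, 4 and 5 (Spearman rho 0.98 to 0.99 over the genes) and less so between these weeks and week 7 (0.76 to 0.84). The same was seen over all loci (0.94 to 0.99, and 0.80 to 0.89 with week 7) and over the 4173 loci (0.86 to 0.99, and 0.51 to 0.71). The week 7 libraries also had the read depth and base quality given above, and their part in the result was not tested.

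**Figure D5:**
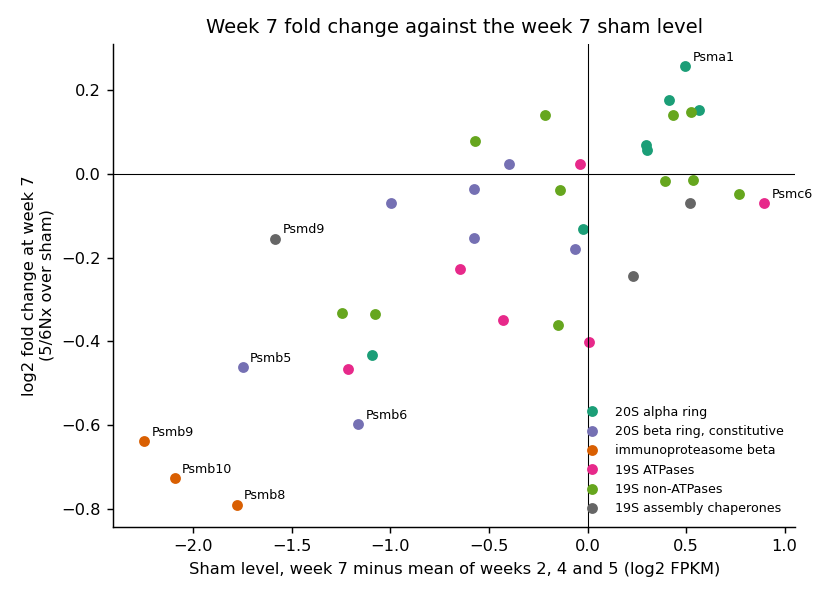
Week 7 log2 fold change (5/6Nx over sham) of the 37 proteasome genes against the shift of their sham level at week 7 from the mean of weeks 2, 4 and 5 (log2 FPKM), coloured by role. The lowest points lie at the lower left (Psmb9, Psmb10 and Psmb8), and the highest is Psma1. The genes with a shift below 0 are mostly below 0 on the other axis too. Of the 14 genes with a shift above 0, 7 are below 0 on the other axis, among them Psmc6, the point furthest right.

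Genes that act with the proteasome were described from lists, and no member was called in any week among 5 activator and inhibitor genes, 8 assembly and associated factors, 8 regulators, 14 genes of ubiquitin supply and 12 tested genes of class I presentation and the interferon response. The activator list had medians of -0.00, -0.11, -0.03 and -0.22. Psme1, a subunit of the interferon-induced activator ring, had 419.6 FPKM in sham and 381 in 5/6Nx at week 2, 447 and 367 at week 4, 562 and 544 at week 5, and 330.5 and 224 at week 7. Its week 7 log2 fold change was -0.56 ± 0.27, with an unadjusted p of 0.0398 and a q-value of 0.427 in the authors' deposited table. Its partner Psme2 had -0.44 ± 0.30 at week 7, and the inhibitor Psmf1 had -0.16 ± 0.17 at week 4.

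The assembly and associated factors had medians of -0.10, -0.10, -0.03 and -0.03. The smallest p-values were those of the core assembly chaperones Psmg4 (-0.25 ± 0.18) and Psmg1 (-0.14 ± 0.17) and of the small cap subunit Shfm1 (-0.17 ± 0.15), all at week 4. Pomp, the core maturation factor, was listed at 0.118 to 0.525 FPKM and was not tested by the authors. Whether this locus covers the whole gene was not examined, so no low level of Pomp is concluded. The regulators had medians of -0.02, -0.03, -0.11 and 0.10. Nfe2l2, the regulator of the oxidative stress response, had 36.3 and 33.7 FPKM at week 2, 32.2 and 37.1 at week 4, 28.8 and 26.6 at week 5, and 44.2 and 69.9 at week 7. The week 7 difference (0.66 ± 0.27) had a q-value of 0.253 in the authors' deposited table and did not pass. The small Maf proteins Maff and Mafk, partners of Nfe2l2, had 0.92 ± 0.48 and 0.48 ± 0.29 at week 7.

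The ubiquitin list had medians of -0.05, -0.08, -0.03 and -0.02. The ubiquitin precursor Ubb had 517 FPKM in sham and 331 in 5/6Nx at week 7 (-0.65 ± 0.29), with a q-value of 0.371 in the authors' deposited table. At weeks 2, 4 and 5 its sham level was 2381, 2578 and 2503 FPKM, so its week 7 level was low in both groups, as for Psmb5. The list of class I presentation and interferon response had medians of 0.03, 0.11, -0.05 and -0.04, and Tap2 was listed at 0. Its smallest p-values were at week 5, with the interferon-induced genes Mx1 higher in value (0.64 ± 0.22, q-value 0.262 in the authors' deposited table) and Gbp2 lower (-0.51 ± 0.19).

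Markers of cell types moved with the groups in the same tables, and their part in the proteasome values was not tested. In bulk tissue, fewer cells of a type and less RNA per cell cannot be told apart. Of 7 cardiomyocyte markers, 7, 7, 6 and 7 were lower in 5/6Nx, with medians of -0.16, -0.18, -0.11 and -0.55, and none was called. Their summed level was 66742 FPKM in sham and 59036 in 5/6Nx at week 2, 65427 and 57415 at week 4, 93531 and 90963 at week 5, and 41593 and 32358 at week 7. Leukocytes are cells rich in immunoproteasome, and of 17, 17, 18 and 17 tested leukocyte markers 12, 13, 14 and 13 were higher in 5/6Nx, with medians of 0.25, 0.30, 0.16 and 0.82. Their summed level was 998 FPKM in sham and 1044 in 5/6Nx at week 2, 1035 and 998 at week 4, 1305 and 1406 at week 5, and 645 and 1153 at week 7, and none was listed at 0. At week 2 most of this level was that of Cd74, with 621 FPKM in sham and 551 in 5/6Nx. At week 7 the lysozyme gene Lyz2 rose from 118 to 608 FPKM, which is most of the rise in the summed level. Cd68 rose from 5.02 to 23.0 and Itgam from 1.52 to 5.37, and these 3 genes were the calls among the markers that week. The other 4 tested markers that differed in direction were lower, down to a log2 fold change of -1.41. Psmb8, Psmb9 and Psmb10 were lower in value at week 7, and a link to the markers was not tested.

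Fibroblast markers had medians of 0.24, 0.36, 0.21 and 0.48 over 7 genes, with 3 called higher at week 4 and 1 each at weeks 5 and 7. Their summed level ranged from 1357 to 1670 FPKM in sham and from 1697 to 2508 in 5/6Nx. Red cell markers had medians of 0.36, 0.02, 1.10 and 1.11, with 2 called higher at weeks 5 and 7 each, and summed levels of 483 to 3273 FPKM in sham and 1040 to 5942 in 5/6Nx. Atrial markers had medians of -0.42, -0.93, 0.01 and -1.35 over 4 genes, with 2 called lower at weeks 4 and 7 each, and summed levels of 346 to 749.7 FPKM in sham and 139 to 603 in 5/6Nx. Adipocyte markers had medians of -0.48, -1.46, -3.01 and -1.55 over 5, 5, 5 and 1 tested genes, with 4 called lower at weeks 4 and 5 each, and summed levels of 3.75 to 60.0 FPKM in sham and 1.34 to 11.04 in 5/6Nx. The adipocyte marker Ucp1 was listed at 0 in at least 1 group at weeks 2, 4 and 7. At week 5 it had 30.2 FPKM in sham, part of the sum of 60.0 FPKM, and 0.0361 in 5/6Nx (-9.71 ± 8.38). Endothelial markers had medians of 0.02, 0.23, 0.02 and 0.14 over 6 genes, none called, and summed levels of 290.4 to 416 FPKM in sham and 294 to 463 in 5/6Nx.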

How the data were processed

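RNA from left ventricle was sequenced as stranded, paired libraries, per the labels' protocols. Cufflinks 2.0.10, TopHat2 2.0.10, Cuffdiff, cutadapt and build rn5 are named, without roles, per the submitters' processing notes. The authors deposited 1 abundance per group and locus, taken as FPKM because Cuffdiff gives that unit. The deposited test statistic is a score, used here only to compare signs. The p-value and q-value are the authors', and a locus counted as called where they marked it significant (q threshold 0.05). For each library the authors deposited the count of reads, the percent of bases at quality 30 and the percent of reads mapped.

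Log2 fold changes were computed from the abundances with Python 3.11.15, pandas 2.3.3 and scipy 1.17.1. Standard errors are the fold change over the normal quantile of the deposited p-value. Week 7 rows that repeated a locus were joined. The planned model per library could not be fitted, since each table holds 1 value per group, so no precision from depth is given.

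Members and lists were chosen with earlier results of these data known. Values in all groups are given for genes called in any week, Psmb5 to Psmb10, and each week's 2 highest and 2 lowest fold changes. Psma7, Psmc2, Psmc3 and Psmd11 were chosen after their values were seen. For other lists, up to 3 genes of smallest p are named, of which some are not reported here. Alternatives are in the closing section. The labels do not say that the pools of a group are separate cohorts, so p-values apply to pools and not to cohorts. They come from the Cuffdiff model, and the spread between the 2 pools of a single gene cannot be seen.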

Additional observations from a re-analysis of the deposited data

How the results depend on the processing

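The count of 0 called genes held in every week at q thresholds of 0.10 and 0.01, after adjustment over loci with at least 1 FPKM, with every locus of a symbol, with Psmc3ip and without Psmd10; the last 2 were chosen after seeing the data. Over these, a pseudocount of 1, centring, leaving out the immunoproteasome genes and the mean in place of the median, the middle of the log2 fold changes ranged from -0.08 to -0.05 at week 2, -0.09 to -0.06 at week 4, -0.02 to -0.01 at week 5 and -0.16 to -0.06 at week 7, where the mean of -0.16 was the lowest. The test between weeks passed 0 genes under both of its alternatives. No paired analysis was possible because the tables hold 1 value per group, and for that reason leaving out each replicate was not run. Precision was lowest at week 7, with a median standard error of 0.28.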
